A study of Mus musculus with 16 samples.

Results

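The genes described here encode the elastic fibre of the lung and the microfibrils that surround it. The set lists 9 genes: Eln, Mfap4, Mfap5, Mfap2, Fbn1, Fbln1, Fbln5, Ltbp4 and Lox. Each gene was read from a probe set that the platform annotation assigns to it alone; among several, the brightest on average over the 16 arrays was taken. Of the 9 genes, 8 had such a probe set and all 8 passed the expression filter, out of 12369 genes tested; Fbn1 was not analysed here. The probe sets were chosen by their mean signal, and no difference between groups entered that choice. The list itself was drawn up with earlier results of these data known, among them the level of Mfap5 after TiO2 in pregnant mice, so that this difference is given below as a description. The pregnant PBS arrays also enter the Mfap5 pregnancy comparisons after PBS and on average. Those comparisons, and the counts that include Mfap5, are therefore descriptions too.

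Elastic fibres let the alveolar wall and the large airways and vessels stretch and recoil. Soluble tropoelastin, the product of Eln, is laid down on a scaffold of fibrillin microfibrils, with fibulins and latent TGF-beta binding proteins guiding its deposition, and lysyl oxidases then cross-link it into an insoluble polymer. In the adult lung the fibre turns over slowly and its genes are expressed mainly by fibroblasts, smooth muscle cells and mesothelial cells, so a transcript level does not give the amount of fibre protein.

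RNA of whole lungs from female mice of the inbred BALB/c strain was measured on 16 one-colour Affymetrix mouse arrays in 4 groups of 4. Non-pregnant mice, and pregnant mice at gestation day 14, received either 50 ug of titanium dioxide (TiO2) particles in 50 uL or the phosphate-buffered saline vehicle (PBS) as a single dose into the nose, under light halothane anesthesia, and RNA was taken 19 hours later. The particles had been baked to remove endotoxin, and ages are not given in the labels. The study asked whether pregnancy alters the usually weak inflammation that follows these particles.

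Whether each of the 4 samples of a group is 1 mouse is not stated, so p-values measure the spread between these samples, which may be technical. One sample, called non-pregnant PBS replicate 2 here, is named as pregnant in one label and as non-pregnant in another. It was kept as non-pregnant because the design gives 4 samples per group, and calls of the 8 genes, and of the further genes named below, that are lost when it is counted as pregnant PBS are marked. The lung markers averaged 12.69 to 12.87 on the log2 scale in all 16 arrays. Such signals lie near the top of each array, where quantile normalization gives all arrays the same values. The narrow range therefore does not show that lung content was alike. Some arrays also differed in RNA of neighbouring tissue: a thymus marker list reached 8.49 in replicate 3 and 8.89 in replicate 4 of non-pregnant PBS and no more than 6.33 on the other arrays, squamous and skeletal muscle lists averaged 5.43 and 5.79 in pregnant TiO2 replicate 2 against at least 9.06 and 10.04 elsewhere, and a fat list ranged from 8.13 to 10.84. The deposited signal of the small-subunit ribosomal RNA probe sets was 77.2 to 194 in non-pregnant PBS, 132 to 589 in non-pregnant TiO2, 51.7 to 112 in pregnant PBS and 47.5 to 166 in pregnant TiO2, so that it lay lower in pregnant mice on average, as the elastic fibre genes below did. In non-pregnant mice the signal lay higher after TiO2 than after PBS on average, where the median difference of the 8 genes was -0.01. A list of lymph node venule markers, 3 of 5 measured, averaged 8.20 to 8.82 in non-pregnant PBS, 6.34 to 8.37 in non-pregnant TiO2, 8.26 to 9.12 in pregnant PBS and 6.40 to 9.33 in pregnant TiO2. The part of either in the pregnancy differences below was not tested. In whole lung RNA, fewer cells of a type and less RNA per cell cannot be told apart.

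Promoter sequence was taken from the RefSeq table used here (GRCm38.p6) for Fbln1, Fbln5, Ltbp4 and Mfap2, 4 of the 8 measured genes. Entries on 1 chromosome were left out of the search, so a gene not named here, such as Lox, may still have an entry. Lox had a larger averaged pregnancy difference (-0.53) than any of these 4 genes. A pair of them is shown because, of these 4 genes, Ltbp4 had the largest and Mfap2 the smallest difference between pregnant and non-pregnant mice on average over the exposures (-0.27 and -0.01, against -0.19 for Fbln5 and -0.17 for Fbln1). Each is the 250 bases before the most upstream start site, written 5′ to 3′ on the strand of the gene. Ltbp4 lies on the minus strand at chr7:27337613-27337862 and Mfap2 on the plus strand at chr4:141010174-141010423.
Ltbp4: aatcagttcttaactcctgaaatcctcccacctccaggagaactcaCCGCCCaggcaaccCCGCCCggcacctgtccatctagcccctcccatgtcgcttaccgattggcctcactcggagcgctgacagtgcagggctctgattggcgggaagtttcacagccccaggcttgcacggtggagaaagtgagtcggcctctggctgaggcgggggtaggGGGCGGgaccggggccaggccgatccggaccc
Mfap2: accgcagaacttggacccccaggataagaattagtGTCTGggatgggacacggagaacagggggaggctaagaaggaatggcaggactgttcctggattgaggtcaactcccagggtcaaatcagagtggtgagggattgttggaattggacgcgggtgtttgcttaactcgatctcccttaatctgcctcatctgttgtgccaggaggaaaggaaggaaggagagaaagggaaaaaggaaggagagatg
Capitals mark matches, on either strand, to GGGCGG (the GC box, CCGCCC on the other strand), CAGAC (a core letter string bound by Smad proteins, GTCTG on the other strand) or TATAAA (the TATA box). The Ltbp4 window held 3 GC box matches and no CAGAC, and the Mfap2 window held 1 CAGAC match and no GC box; neither held TATAAA. The windows were 64.4% and 51.2% G or C, against a median of 52.4% over 32851 promoters of the table. Of those promoters, 32.7% held the GC box, 42.2% CAGAC and 12.4% TATAAA.

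Values below are log2(quantile-normalized signal + 16), listed for replicates 1 to 4 of a group. Replicate numbers are names only. Signals of different probe sets were not compared with each other, since probes differ in how well they bind.

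After PBS, the microfibril genes Mfap4 and Mfap5 were lower in pregnant than in non-pregnant lungs, and the estimate for Eln lay on the same side without passing the test. Mfap4, a glycoprotein that binds elastin and microfibrils, was at 11.88, 11.77, 12.01 and 11.61 in non-pregnant mice after PBS and at 11.00, 10.21, 11.36 and 11.36 in pregnant mice. Every pregnant array lay below every non-pregnant array, and pregnant PBS replicate 2 was the lowest of all 16. The difference was -0.83 ± 0.19 (SE), a level 0.561 of that in non-pregnant mice, with an adjusted p of 0.0458 by limma.

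Mfap5, a small microfibril protein that binds fibrillin, was at 9.34, 9.35, 9.23 and 9.22 in non-pregnant mice after PBS and at 8.63, 8.64, 8.71 and 8.83 in pregnant mice. These groups were tight and did not overlap, with SDs of 0.07 and 0.09. The difference was -0.58 ± 0.09, a level 0.668 of that in non-pregnant mice (adjusted p = 0.00545 by limma). The pregnant PBS arrays also enter the TiO2 response known when Mfap5 was listed, so this p-value is a description and not an independent test.

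Eln, which encodes elastin itself, was at 10.47, 10.61, 10.53 and 10.49 in non-pregnant mice after PBS and at 9.53, 9.35, 10.35 and 10.22 in pregnant mice. The groups did not overlap, but the pregnant arrays were widely spread, with replicates 1 and 2 far below replicates 3 and 4. The difference was -0.66 ± 0.19 and did not pass the threshold (adjusted p = 0.140 by limma; 95% interval -1.07 to -0.25).

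**Figure D1:**
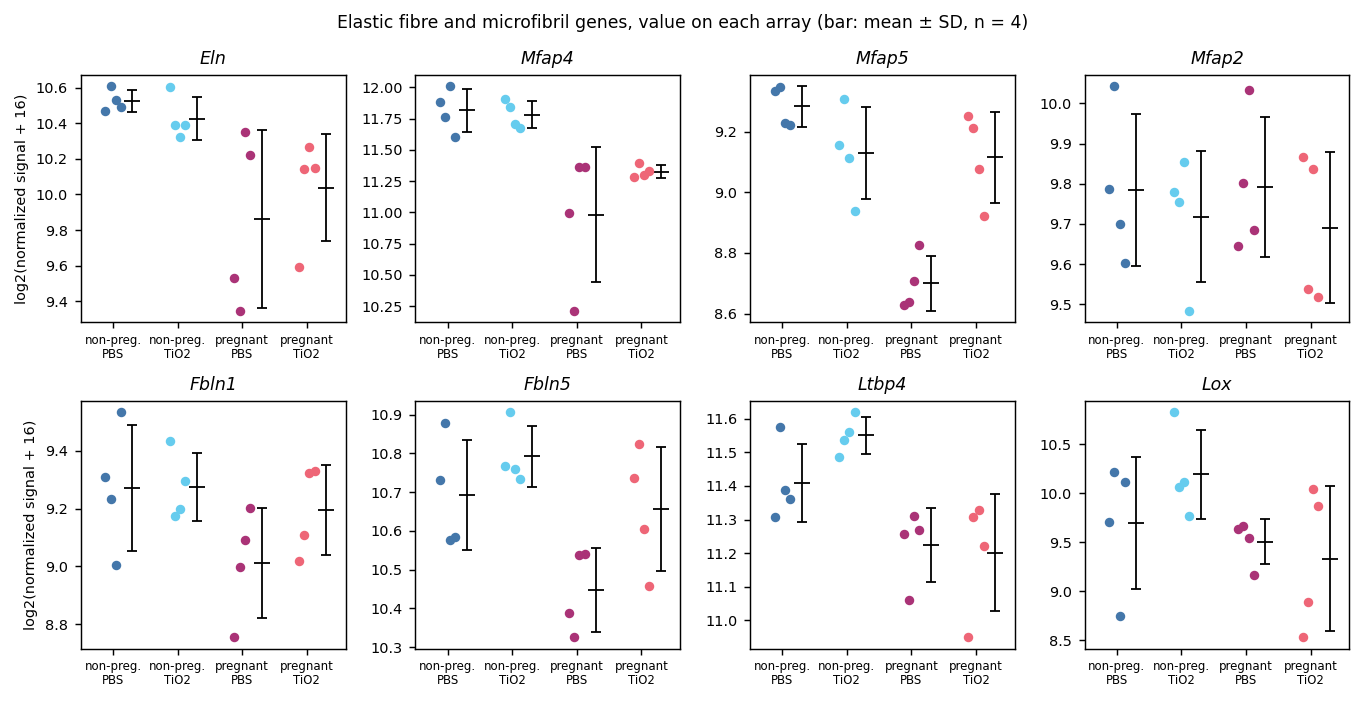
Each panel plots 1 gene on its own scale, as log2(normalized signal + 16) on each array, by group; the bar is the mean ± SD of 4 arrays. Mfap4, Mfap5, Eln and Fbln5 show the pregnant PBS arrays below all non-pregnant PBS arrays, while Mfap2 shows the 4 groups overlapping.

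After PBS, 2 of the 8 genes were called lower in pregnant mice and none higher, where 1.04% of all 12369 genes were called and 0.234% were called lower. For 4 of the 8 (Eln, Fbln5, Mfap4 and Mfap5) all pregnant arrays were below all non-pregnant ones, against 2.30% of all genes. The median difference of the 8 genes was -0.25, and that of all genes 0.01. Mfap5 is in both counts, and its low pregnant PBS arrays also enter the TiO2 response known when the list was drawn up. The counts are therefore descriptions.

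The call of Mfap5 was kept when any 1 array was left out (adjusted p 0.00481 to 0.0252, limma). Because Mfap5 was listed with a response of these same arrays known, its stability is a description too. The call of Mfap4 was lost without any of 12 of the 16 arrays (adjusted p 0.0588 to 0.110). It was kept without pregnant PBS replicate 2 (-0.58, adjusted p = 0.0297), 3 (-0.96, 0.0326) or 4 (-0.96, 0.0287), or without pregnant TiO2 replicate 2 (0.0484). With the array of conflicting labels counted as pregnant PBS neither gene passed (Mfap4 -0.70, adjusted p = 0.244; Mfap5 -0.43, adjusted p = 0.237), nor did they with values as deposited, without scaling between arrays (-0.70, 0.369; -0.41, 0.862). Mfap4 also lost the call with only the arrays compared in the fit (adjusted p = 0.236), with array weights (0.112), without the 3 arrays of unlike tissue content (0.0891), with no filter (0.0743), with the fat list mean as a covariate (0.0593) or with a pseudocount of 1 (0.0569), and kept it with trimmed-mean scaling (0.0378), a pseudocount of 64 (0.0283) or the mean over probe sets (0.0412).

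In the same comparison after TiO2 no gene of the set passed the threshold. Mfap4 was at 11.91, 11.84, 11.71 and 11.68 in non-pregnant mice after TiO2 and at 11.28, 11.39, 11.30 and 11.33 in pregnant mice. The pregnant arrays were close together and all below the non-pregnant arrays, with a difference of -0.46 ± 0.19 that did not pass (adjusted p = 0.191 by limma). Eln was at 10.60, 10.39, 10.32 and 10.39 against 9.59, 10.14, 10.27 and 10.15 in pregnant mice, again without overlap (-0.39 ± 0.19, adjusted p = 0.274). Mfap5 was at 9.16, 9.31, 9.11 and 8.94 against 9.25, 9.21, 9.08 and 8.92 in pregnant mice, 2 groups that overlapped throughout. Its difference was -0.01 ± 0.09, with a 95% interval of -0.21 to 0.18.

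Ltbp4 encodes a latent TGF-beta binding protein that takes part in elastic fibre assembly. After TiO2 it was at 11.49, 11.54, 11.56 and 11.62 in non-pregnant mice and at 10.95, 11.31, 11.33 and 11.22 in pregnant mice. The groups did not overlap, and the difference of -0.35 ± 0.09 had an adjusted p of 0.0662 (limma). After PBS it was at 11.31, 11.58, 11.39 and 11.36 against 11.26, 11.06, 11.31 and 11.27, where the highest pregnant array met the lowest non-pregnant one, and the difference was -0.18 ± 0.09 (adjusted p = 0.458).

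After TiO2, 0 of the 8 genes were called by limma, where 1.88% of all genes were called; 3 of the 8 (Ltbp4, Mfap4 and Lox) had an unadjusted p under 0.05, as did 20.4% of all genes. Eln, Ltbp4 and Mfap4 had all pregnant arrays below all non-pregnant arrays, against 6.18% of all genes. One gene of the 8 was called under some alternatives: Ltbp4 with a pseudocount of 64 (adjusted p = 0.0497), with array weights (0.0132) or without non-pregnant PBS replicate 2 (0.0487), and Mfap4 with only the 8 arrays of these groups in the fit (0.0226) or without pregnant PBS replicate 2 (0.0381).

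Averaged over both exposures, 4 of the 8 genes were called lower in pregnant mice and none higher, where 4.42% of all genes were called and 1.23% called lower. This average uses the same 16 arrays as the comparisons after PBS and after TiO2 and does not add to them. Its counts include Mfap5 and are likewise descriptions. The differences were -0.64 ± 0.13 for Mfap4 (adjusted p = 0.0119 by limma), -0.30 ± 0.07 for Mfap5 (0.0166), -0.27 ± 0.07 for Ltbp4 (0.0303) and -0.52 ± 0.14 for Eln (0.0402). For Mfap5 the average combines -0.58 after PBS with -0.01 after TiO2. All 8 differences were below 0, with a median of -0.28, against 0.01 over all genes, of which 53.9% were above 0.

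Mfap4 and, as a description only, Mfap5 kept this call with each array left out in turn (adjusted p at most 0.0281 and 0.0379, limma). Ltbp4 lost it without any of 8 arrays (pregnant PBS replicates 1 and 2, non-pregnant PBS replicate 2, non-pregnant TiO2 replicates 2, 3 and 4, and pregnant TiO2 replicates 1 and 4; adjusted p at most 0.0604), and Eln without any of 11 (0.0560 to 0.0854), all except non-pregnant PBS replicate 3, pregnant PBS replicates 3 and 4 and pregnant TiO2 replicates 2 and 3. None of the 4 calls remained with the array of conflicting labels counted as pregnant PBS (adjusted p 0.0954 to 0.304), with values as deposited (0.0592 to 1.000) or with the fat list mean as a covariate (0.0621 to 0.186); every difference stayed below 0 there. Eln also lost it with trimmed-mean scaling (0.0521), array weights (0.0592) or no filter (0.0641), and Ltbp4 with no filter (0.0519).

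**Figure D2:**
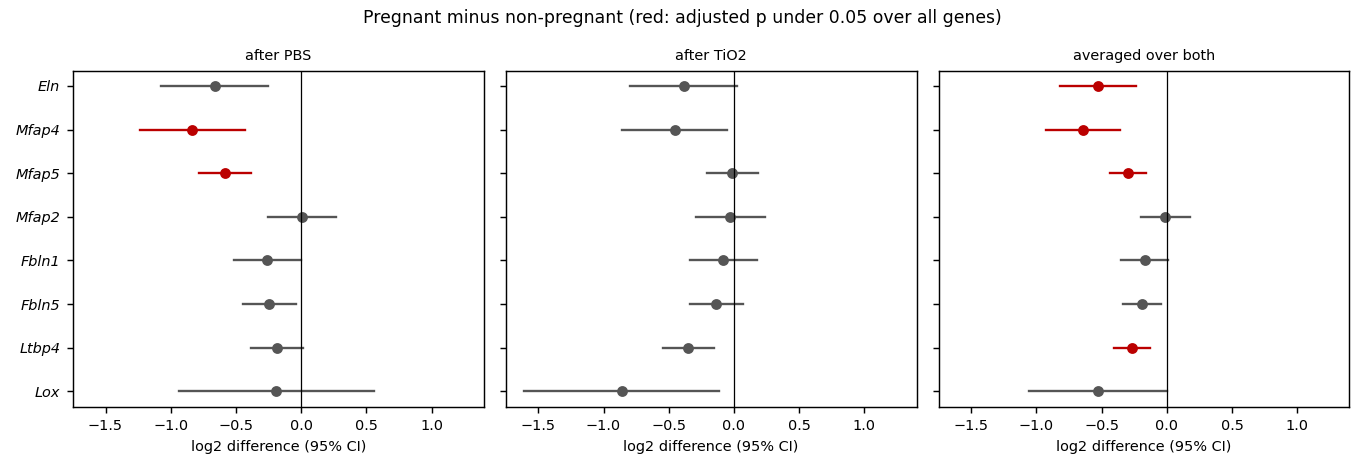
Pregnant minus non-pregnant difference of each gene on the log2 scale (point) with its 95% interval (line), after PBS, after TiO2 and averaged over both; red marks an adjusted p under 0.05 over all genes. Red points are Mfap4 and Mfap5 after PBS, none after TiO2, and Mfap4, Mfap5, Ltbp4 and Eln in the average, all to the left of 0.

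**Figure D3:**
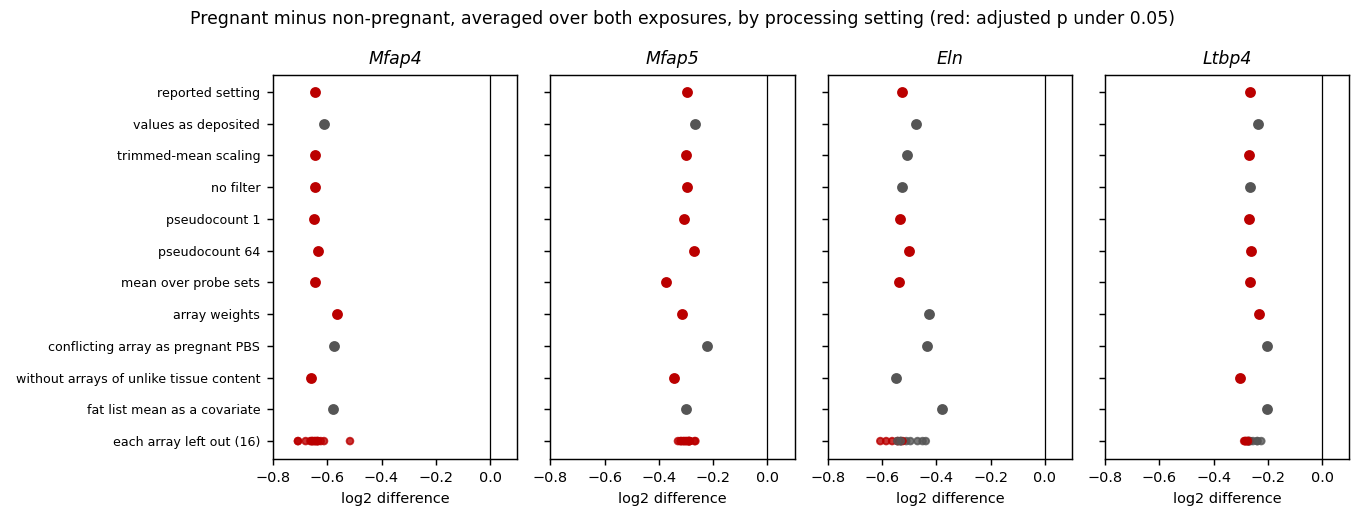
The averaged pregnant minus non-pregnant difference of the 4 called genes (log2 scale) under each processing setting, 1 row per setting, with the 16 fits that each leave out 1 array in the bottom row; red marks an adjusted p under 0.05. All points lie to the left of 0, and the colour changes to grey for all 4 genes in the rows for values as deposited, for the conflicting array counted as pregnant PBS and for the fat covariate.

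The other 4 genes of the set did not pass the threshold in any pregnancy comparison as reported here; Fbln5 passed on average (-0.27, adjusted p = 0.0333 by limma) when the 3 arrays of unlike tissue content were left out. Fbln5, a fibulin that binds elastin and is needed to organise the fibre, was at 10.73, 10.88, 10.58 and 10.58 in non-pregnant mice after PBS and at 10.39, 10.33, 10.54 and 10.54 in pregnant mice. These groups came close without overlapping, and the difference was -0.24 ± 0.10 (adjusted p = 0.304 by limma). After TiO2 it was at 10.77, 10.91, 10.76 and 10.73 against 10.74, 10.82, 10.60 and 10.46, and the groups overlapped (-0.14 ± 0.10, adjusted p = 0.435).

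Fbln1, a fibulin of elastic fibres and basement membranes, was at 9.31, 9.23, 9.00 and 9.53 in non-pregnant mice after PBS and at 8.75, 9.00, 9.09 and 9.20 in pregnant mice. The groups overlapped, with a difference of -0.26 ± 0.12 (adjusted p = 0.418 by limma). After TiO2 its values of 9.43, 9.17, 9.20 and 9.30 against 9.02, 9.11, 9.32 and 9.33 also overlapped (-0.08 ± 0.12).

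Lox, the lysyl oxidase that cross-links elastin and collagen, varied most from array to array. It was at 9.70, 10.22, 8.74 and 10.12 in non-pregnant mice after PBS, at 9.63, 9.67, 9.54 and 9.17 in pregnant mice after PBS, at 10.83, 10.06, 10.12 and 9.76 in non-pregnant mice after TiO2 and at 8.53, 8.89, 10.04 and 9.87 in pregnant mice after TiO2. Within-group SDs ran from 0.23 to 0.74, so its difference after TiO2, -0.86 ± 0.35, was the largest of the 8 genes and still did not pass (adjusted p = 0.187 by limma). After PBS the difference was -0.19 ± 0.35, with an interval of -0.94 to 0.56 that leaves room for a change in either direction.

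Mfap2, which encodes another small microfibril glycoprotein, was at 9.79, 10.04, 9.70 and 9.60 in non-pregnant and at 9.64, 9.80, 10.03 and 9.69 in pregnant mice after PBS. After TiO2 it was at 9.78, 9.76, 9.85 and 9.48 in non-pregnant and at 9.87, 9.54, 9.84 and 9.52 in pregnant mice. All 4 groups overlapped. The averaged difference was -0.01 ± 0.09, with a 95% interval of -0.20 to 0.17, which does not reach the estimates of Mfap4 (-0.64), Eln (-0.52), Mfap5 (-0.30) or Ltbp4 (-0.27); the difference between genes was not tested.

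Ordered by mean level within each gene, Mfap4 and Eln had both non-pregnant groups above both pregnant groups, with pregnant PBS lowest (Mfap4 means of 11.82, 11.78, 11.33 and 10.98; Eln means of 10.53, 10.43, 10.04 and 9.86, for non-pregnant PBS, non-pregnant TiO2, pregnant TiO2 and pregnant PBS). Within a pregnancy state the neighbouring groups of these genes overlapped. Ltbp4 also had both non-pregnant means above both pregnant means, from 11.55 ± 0.06 (SD, n = 4) in non-pregnant TiO2 to 11.20 ± 0.17 in pregnant TiO2. Mfap5 had a single low group, pregnant PBS at 8.70 ± 0.09, below the other 3 at 9.12 ± 0.15, 9.13 ± 0.15 and 9.28 ± 0.07. That held for the probe set used here. The other Mfap5 probe set was also lower in pregnant mice after TiO2 (-0.25).

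In response to TiO2 none of the 12369 genes tested passed the threshold, in either pregnancy state, on average or in the difference between the responses, so percent called was 0 for the 8 genes as for all genes (limma); with other settings up to 5 genes were called, none of them among the 8. In non-pregnant mice 0 of the 8 had an unadjusted p under 0.05, against 9.89% of all genes, and their differences ran from -0.15 to 0.50 with a median of -0.01. In pregnant mice 2 of the 8 (Fbln5, and Mfap5, which was listed with this response known) had an unadjusted p under 0.05, against 6.43% of all genes, and the median was 0.18, against -0.00 over all genes.

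Mfap5 had the largest estimated response of the set in pregnant mice. Its pregnant TiO2 arrays (8.92 to 9.25) were all above its pregnant PBS arrays (8.63 to 8.83), a separation upward that 2.05% of all genes showed. The difference was 0.42 ± 0.09. In non-pregnant mice the difference was -0.15 ± 0.09, and the difference between the responses was 0.57 ± 0.13. The pregnant PBS arrays enter this response and also the pregnancy comparison after PBS, so the low Mfap5 level in those 4 arrays appears in both.

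Markers of the mesothelium, the cell layer that covers the lung and one source of elastic fibre genes, are given beside the Mfap5 response and the pregnancy differences. All 7 listed markers were measured. In pregnant mice the TiO2 minus PBS difference was above 0 for all 7, with a median of 0.31, and in non-pregnant mice it was below 0 for all 7, with a median of -0.20. None was called. The list mean was 7.75 to 8.03 on the non-pregnant PBS arrays, 7.41 to 7.80 in non-pregnant TiO2, 7.60 to 8.01 in pregnant PBS and 7.83 to 8.19 in pregnant TiO2. In the difference of responses all 7 were above 0, as were 9 of 14 fibroblast and 8 of 9 measured fat markers. For squamous and skeletal muscle markers it was 0 of 9 in each list. The median over all genes was 0.02. Between pregnant and non-pregnant mice the mesothelial markers did not follow the lower elastic fibre genes. In pregnant mice 2 of the 7 were above 0 after PBS (median -0.08), 7 after TiO2 (median 0.36) and 6 on average (median 0.13), none called. The part of the mesothelial markers in the Mfap5 response or in the pregnancy differences was not tested.

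Mfap4 (0.34 ± 0.19), Fbln5 (0.21 ± 0.10), Fbln1 (0.18 ± 0.12) and Eln (0.18 ± 0.19) also had estimates above 0 in pregnant mice after TiO2, with adjusted p from 0.762 to 0.883 by limma. Ltbp4 (-0.02 ± 0.09), Mfap2 (-0.10 ± 0.12) and Lox (-0.17 ± 0.35) had estimates below 0. Averaged over both pregnancy states 1 of the 8 (Fbln5, 0.15 ± 0.07) had an unadjusted p under 0.05, against 6.20% of all genes.

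**Figure D4:**
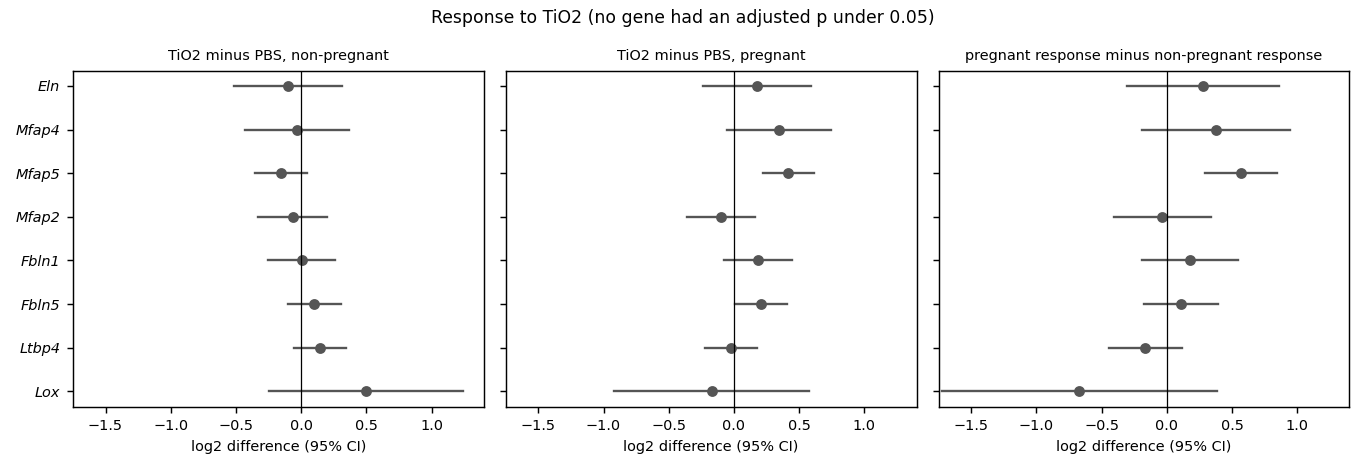
TiO2 minus PBS difference of each gene on the log2 scale (point) with its 95% interval (line) in non-pregnant mice, in pregnant mice, and the pregnant minus the non-pregnant response; none of the 8 had an adjusted p under 0.05. In pregnant mice Mfap5 lies at 0.42, while its value in non-pregnant mice is -0.15.

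Of the 8 genes, 5 (Mfap5, Eln, Lox, Fbln1 and Mfap2) had a second probe set that passed the filter and read the same RNA samples; Mfap4 and Ltbp4 had 1 probe set each, so their differences have no such check. The other Mfap5 probe set was lower in pregnant mice after PBS by a similar amount (-0.65) but also after TiO2 (-0.25, where the first gave -0.01), and its TiO2 response in pregnant mice was 0.27. The other Eln probe set gave -0.54 after PBS and -0.56 after TiO2. The second probe set of Lox gave -0.00 and -0.54, that of Fbln1 -0.23 and 0.12, and that of Mfap2 -0.13 and 0.12. Fbln1 and Mfap2 thus differed in sign between probe sets after TiO2. Mfap2 also did after PBS, where its first probe set gave 0.01. The remaining 3 probe sets of these genes, 1 each for Fbln1, Fbln5 and Lox, were below the filter.

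Over the 16 arrays, which share the groups and the normalization, Eln ran most closely with Mfap4 (Pearson r = 0.88) and Ltbp4 (0.76), and Mfap5 with Fbln5 (0.81). With each group's mean removed these were 0.74, 0.67 and 0.82, pooled over all arrays. Eln and Mfap4 were spread widest in pregnant PBS (SD 0.50 and 0.54), so the arrays of that group weigh most in their value. The groups were not correlated one by one. Mfap2 had r between -0.13 and 0.18 with the other 7, and with group means removed 0.46 with both Mfap5 and Fbln5. These correlations are descriptions over 16 arrays.

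Genes outside the set whose array pattern was most like the mean of the 8 standardised members were Npnt (r = 0.93 over 16 arrays), the gene of the matrix protein nephronectin, followed by Purb (0.89), Irf2bp2 (0.88), Kank4 (0.88), Rhob (0.86), Ddit4 (0.86), Serpinh1 (0.86), which encodes a collagen chaperone, and Prrc2c (0.86). Of 12361 genes compared, 38 had r above 0.8.

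Of 29 further genes listed for the elastic fibre pathway (fibulins, latent TGF-beta binding proteins, emilins, lysyl oxidase-like enzymes, integrins and TGF-beta ligands), 25 were measured. Averaged over both exposures 3 of the 25 were called higher in pregnant mice and 0 lower, where 4.42% of all genes were called and 3.19% called higher. The estimates of 13 of the 25 were below 0, with a median of -0.03. Emilin2, an elastin microfibril interface protein also made by blood cells, was 0.79 ± 0.09 higher (adjusted p = 0.000197 by limma). Itgb3, an integrin subunit abundant on platelets, was 0.74 ± 0.11 higher (adjusted p = 0.00103). Tgfb1, a growth factor whose latent form is bound by some Ltbp proteins, was 0.25 ± 0.07 higher (adjusted p = 0.0495).

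Emilin2 and Itgb3 were called higher after PBS (0.87 ± 0.13 and 0.86 ± 0.15) and after TiO2 (0.71 and 0.63), and Tgfb1 after TiO2 (0.41 ± 0.10, adjusted p = 0.0387, limma; 0.09 after PBS). In the response to TiO2 in pregnant mice the smallest p of the list belonged to Emilin2 (-0.44 ± 0.13) and Ltbp3 (0.28 ± 0.12), neither called. Loxl1, the lysyl oxidase-like enzyme tied to elastin, was at -0.39 ± 0.15 after PBS and -0.19 ± 0.11 on average and was not called. With the array of conflicting labels counted as pregnant PBS, a setting applied to these genes after their values were seen, the averaged calls of Emilin2 (0.69, adjusted p = 0.0333 by limma) and Itgb3 (0.71, 0.0244) remained. Those 2 genes did not pass after PBS (0.204 and 0.116) or after TiO2 (0.0888 and 0.0905) there, and Tgfb1 did not pass after TiO2 (0.0550) or on average (0.107). Tgfb1 also lost its averaged call without the 3 arrays of unlike tissue content (0.0584) and with the fat covariate (0.0741). Its call after TiO2 was lost in the same settings (0.0567 and 0.0960). With the fat covariate Emilin2 and Itgb3 did not pass after TiO2 either (adjusted p = 0.0797 and 0.0881 by limma).

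Of 12 listed proteases that cut elastin or matrix and their inhibitors, 10 were measured. Averaged over both exposures Mmp9, a gelatinase that neutrophils carry, was higher in pregnant mice (0.52 ± 0.09, adjusted p = 0.00360 by limma) and Mmp2, a gelatinase of stromal cells, lower (-0.28 ± 0.06, adjusted p = 0.0210). These were 2 of the 10, where 4.42% of all genes were called. Mmp9 was also called after PBS (0.58 ± 0.13, adjusted p = 0.0361). With the array of conflicting labels in the pregnant PBS group neither gene passed on average (Mmp9 0.42, adjusted p = 0.0974; Mmp2 -0.19, 0.306) and Mmp9 did not after PBS (0.386). In pregnant mice after TiO2 the smallest p belonged to the macrophage elastase Mmp12 (0.55 ± 0.11) and the cathepsin Ctsk (0.44 ± 0.11), neither called. Both estimates were also above 0 in non-pregnant mice (0.28 ± 0.11 and 0.45 ± 0.11), again not called.

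Markers of fibroblasts and smooth muscle, which also make elastic fibres, were set beside these results, as those of the mesothelium were above. All 14 listed fibroblast markers were measured, and averaged over both exposures 12 of the 14 were below 0 in pregnant mice, with a median of -0.20. Of the 14, 2 were called, against 4.42% of all genes: Npnt lower (-0.37 ± 0.06, adjusted p = 0.00251 by limma) and the transcription factor Tcf21 higher (0.30 ± 0.06, adjusted p = 0.00683). After PBS 3 of the 14 were called, against 1.04% of all genes, of which 0.808% were called higher: Npnt (-0.41) and the matrix protein Dpt (-0.47) lower and Tcf21 (0.46) higher. None of these calls remained with the array of conflicting labels in the pregnant PBS group (adjusted p 0.0688 to 0.492, limma). Without the 3 arrays of unlike tissue content Dpt and Tcf21 also lost their calls after PBS (0.102 and 0.0525). The mean of the list over the arrays of a group ran from 10.72 to 10.87 in non-pregnant PBS, 10.77 to 10.93 in non-pregnant TiO2, 10.51 to 10.79 in pregnant PBS and 10.58 to 10.76 in pregnant TiO2. The part of these markers in the lower Mfap4, Mfap5, Eln and Ltbp4 was not tested.

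The 10 smooth muscle markers, all measured, had a median difference of -0.00 averaged over both exposures. Of the 10, 1 was called, against 4.42% of all genes: the contractile regulator Cnn1, higher (0.34 ± 0.08, adjusted p = 0.0246 by limma). It was also the 1 of the 10 called after TiO2 (0.52 ± 0.11, adjusted p = 0.0315), against 1.88% of all genes. Cnn1 passed neither test with the array of conflicting labels in the pregnant PBS group (adjusted p = 0.103 on average and 0.0548 after TiO2) or with the fat covariate (0.130 and 0.186). The list mean lay between 9.69 and 9.88 on the non-pregnant PBS arrays and between 9.69 and 9.85 on the pregnant PBS arrays. The 9 measured fat markers averaged 10.18 ± 0.47 (SD, n = 4) in non-pregnant PBS, 8.87 ± 0.69 in non-pregnant TiO2, 10.37 ± 0.65 in pregnant PBS and 10.03 ± 0.93 in pregnant TiO2. Within these values the adipocyte hormone gene Adipoq ran from 7.73 to 11.53 over the 16 arrays.

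Leaving out the 3 arrays of unlike thymus, squamous or muscle content gave averaged pregnancy differences of -0.66 for Mfap4, -0.34 for Mfap5, -0.30 for Ltbp4 and -0.55 for Eln; the first 3 remained called and Eln did not (adjusted p = 0.0633 by limma). After PBS, Mfap5 remained called without them (-0.64, adjusted p = 0.0169) and Mfap4 did not (-0.84, adjusted p = 0.0891).

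**Figure D5:**
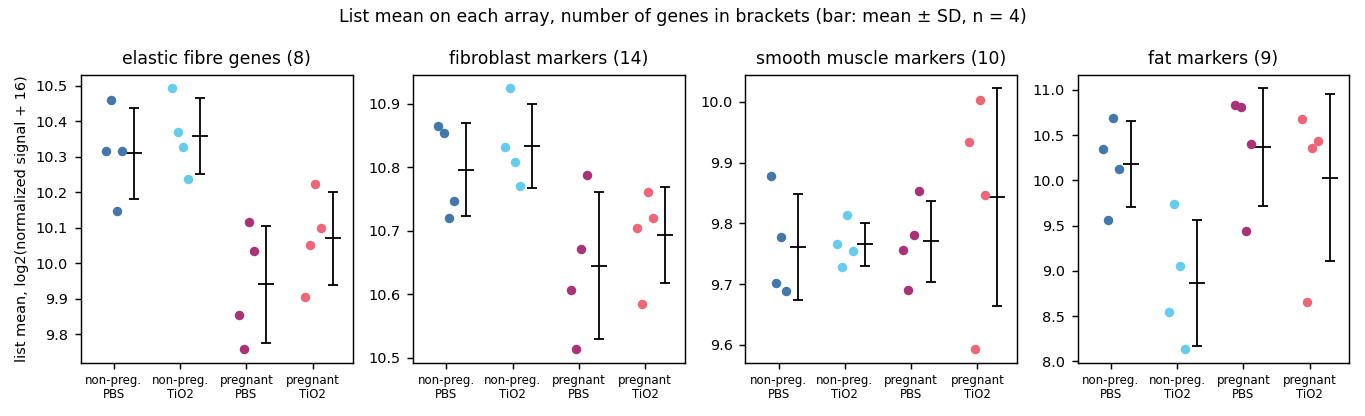
Mean of the 8 elastic fibre genes and of the fibroblast, smooth muscle and fat marker lists on each array (log2 scale, each panel with its own range), with the mean ± SD of 4 arrays per group. The elastic fibre mean ran from 10.15 to 10.46 in non-pregnant PBS and from 9.76 to 10.12 in pregnant PBS, and the group mean of the fat list was lowest in non-pregnant TiO2.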

How the data were processed

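The members and gene lists were chosen with earlier results of these data known. The authors deposited a linear intensity for each of 45101 probe sets on every array. GCOS, MAS5 and RMA are named in the submitters' processing notes; which of them made the values is not given in the sources used here. Deposited intensities were not scaled between arrays, whose trimmed means (without the outer 2% at either end) lay between 137 and 263.

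The 64 controls were removed, the remaining intensities quantile-normalized, and log2(value + 16) taken, which understates changes of weak signals. The filter asked for a value over the array's median on 4 or more arrays, and 23995 probe sets passed. Of all probe sets 34945 had 1 gene symbol, 932 several and 9160 none, by the platform annotation updated against RefSeq (34741 matched). The highest mean stood for each gene, giving 12369 genes. Limma 3.58.1 (lmFit and eBayes, R 4.3.3) fitted 4 group means over 16 arrays, with 12 residual degrees of freedom, 7 contrasts and Benjamini-Hochberg adjustment within a contrast over all genes, at a threshold of 0.05; "called" means past it. Errors are SE unless SD is named. The fit was tested on simulated data.

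Named were all listed members in every contrast; of the pathway, protease, fibroblast and smooth muscle lists, genes called in a contrast, or else the 2 with the smallest p in the averaged pregnancy contrast and in TiO2 minus PBS in pregnant mice; the 8 genes most like the members; and 1 or 2 defining genes of other tissues' markers. Loxl1 was named after its values were seen. The number of arrays limits the precision. Alternatives covered scaling, filter, pseudocount (1 and 64), probe sets, array weights, the arrays and groups in the fit, a fat covariate and each array left out. Of the other listed genes, only those called were rerun, chosen after seeing the data, in 3 of these settings: the array of conflicting labels moved, 3 arrays left out, and the fat covariate.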

Additional observations from a re-analysis of the deposited data

How the results depend on the processing

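No paired analysis was possible because replicate numbers here are only the order of the samples. With each array left out, the number of the 8 genes called in pregnant against non-pregnant mice ran from 1 to 2 after PBS, 0 to 1 after TiO2 and 2 to 4 on average, and was 0 in every TiO2 comparison; of all genes, 71 to 219, 52 to 382 and 381 to 877 were called (129, 233 and 547 with all arrays), and for TiO2 0 to 5 in non-pregnant mice, 0 to 1 in pregnant mice, 0 to 2 for the difference of responses and 0 to 2 on average. After PBS the members called were 0 with values as deposited and with the conflicting array as pregnant PBS, and 1 with no filter, a pseudocount of 1, array weights, without arrays of unlike tissue content, with the fat covariate or with only the arrays compared. After TiO2 they were 1 with a pseudocount of 64, array weights or only the arrays compared, and on average 0 with values as deposited, the conflicting array as pregnant PBS or the fat covariate, and 2 with no filter. Counts of all genes called after PBS, after TiO2 and on average were 38, 21 and 102 with values as deposited, where TiO2 in pregnant mice and TiO2 on average each gave 1; 7, 104 and 109 with the conflicting array as pregnant PBS; and 295, 428 and 1074 without arrays of unlike tissue content, where the difference of responses gave 4. They were 1505 after TiO2 and 935 on average with array weights (1 for TiO2 in pregnant mice), 22 and 240 with the fat covariate, 49 after PBS and 483 after TiO2 with only the arrays compared, and 141 after TiO2 with no filter (1 each for TiO2 in non-pregnant mice and the difference of responses). The cause of these shifts was not tested.

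No called member changed direction; the reversals were of uncalled values, the largest being 0.28 for Eln in the difference of responses. Values as deposited gave for TiO2 in non-pregnant mice 0.095 for Eln, 0.15 for Mfap2, 0.12 for Mfap4 and 0.060 for Mfap5, for the difference of responses -0.00020 for Eln, -0.12 for Fbln1 and -0.14 for Fbln5, and for pregnancy on average 0.026 for Mfap2. Trimmed-mean scaling gave for TiO2 in pregnant mice 0.0059 for Ltbp4. The mean over probe sets gave for TiO2 in non-pregnant mice 0.035 for Eln and -0.19 for Fbln1, for TiO2 in pregnant mice 0.047 for Mfap2, for the difference of responses 0.11 for Mfap2, for pregnancy after PBS -0.061 for Mfap2, for pregnancy after TiO2 0.019 for Fbln1 and 0.046 for Mfap2, and for TiO2 on average -0.054 for Fbln1. Array weights gave for TiO2 in non-pregnant mice -0.091 for Fbln1, 0.048 for Mfap2 and 0.019 for Mfap4, for TiO2 in pregnant mice 0.17 for Lox, for the difference of responses -0.033 for Fbln5, for pregnancy after TiO2 0.0031 for Fbln1, and for pregnancy on average 0.0010 for Mfap2. Counting the conflicting array as pregnant PBS gave for TiO2 in non-pregnant mice -0.0076 for Fbln1 and 0.021 for Mfap2, for the difference of responses -0.040 for Fbln5, for pregnancy after PBS 0.13 for Lox, for pregnancy on average 0.058 for Mfap2, and for TiO2 on average -0.022 for Eln. Leaving out arrays of unlike tissue content gave for TiO2 in non-pregnant mice -0.012 for Fbln5, for the difference of responses 0.15 for Mfap2, for pregnancy after PBS -0.12 for Mfap2, and for pregnancy after TiO2 0.023 for Mfap2. The fat covariate gave for TiO2 in non-pregnant mice -0.079 for Fbln1 and -0.00070 for Fbln5, and for TiO2 on average -0.14 for Eln and -0.018 for Ltbp4. With each array left out, values ran for pregnancy on average -0.051 to 0.033 for Mfap2, for TiO2 on average -0.048 to 0.12 for Eln, for TiO2 in non-pregnant mice -0.084 to 0.093 for Fbln1, -0.13 to 0.021 for Mfap2 and -0.10 to 0.031 for Mfap4, for pregnancy after TiO2 -0.076 to 0.052 for Mfap5 and -0.11 to 0.029 for Mfap2, for the difference of responses -0.12 to 0.045 for Mfap2, for TiO2 in pregnant mice -0.41 to 0.096 for Lox and -0.076 to 0.062 for Ltbp4, and for pregnancy after PBS -0.073 to 0.094 for Mfap2.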
